A study of Homo sapiens with 12 samples.

Results

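The genes described here encode the proteins of the cytosolic ribosome. They were taken as the rows of the count table whose symbol is RPL or RPS followed by a number, with or without a final A or X, together with RPLP0, RPLP1, RPLP2 and RPSA, provided that their mean over the 12 libraries reached 10 CPM (counts per 1e6 of the library's total). Of 53712 named rows, 77 had such a symbol and 75 reached that level, 30 of the small subunit and 45 of the large subunit. RPL36A and RPS10 stood just inside the limit with a mean of 11.7 and 29.1 CPM, and RPL17 just outside it with 9.59 CPM. The members were thus chosen by their name and their mean level over all libraries, so their being well expressed is no finding, and all 75 also passed the filter on low counts that left 17228 genes for testing.

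Each ribosome holds a single copy of nearly every one of these proteins, and cells make them in matched amounts. Most of their mRNAs begin with a cytosine followed by an unbroken run of pyrimidines, the 5′ terminal oligopyrimidine (TOP) motif. Through this motif the kinase mTOR and the RNA-binding protein LARP1 control how strongly the mRNAs are translated and how long they last. Pluripotent cells are rich in ribosome biogenesis, and surplus ribosomal proteins such as RPL5 and RPL11 bind MDM2, which restrains its hold on the tumour suppressor p53.

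RNA was measured by poly(A) RNA sequencing in H9, an established line of human embryonic stem cells, in 3 groups of 4 libraries. ASO-L1 cells received antisense oligos against LINE1 (L1), a family of mobile elements, SO-L1 cells the corresponding sense oligos, and ASO-Ctr cells antisense oligos without an intended target, always at 25 nM. All 3 groups grew in RSeT medium, which is meant for naive human embryonic stem cells. They all carried the same drugs, 10 nM DZNep, which lowers histone methylation, and 5 nM TSA, a histone deacetylase inhibitor, until harvest at 48 h. They also had trans-ISRIB (0.7 uM), which blunts the integrated stress response, the caspase inhibitor emricasan (5 uM) and the ROCK inhibitor Y-27632 (10 uM) for the first 24 h. Cells were not sorted for those that took up oligos, so each group can mix transfected and untransfected cells.

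The libraries held between 20367989 (SO-L1 1) and 32180891 (ASO-L1 2) counts. All 8 pluripotency markers examined were expressed, with a summed level of 7114 to 7746 CPM in ASO-L1, 8142 to 8799 CPM in SO-L1 and 8183 to 9063 CPM in ASO-Ctr. Of these 8 genes 4 fell in ASO-L1 against ASO-Ctr and 0 rose, and with the library number as a block 7 were lower and 0 higher. Of all genes tested, 10.7% were called lower and 11.6% higher in this comparison, and with the block 22.5% in each direction. Of 8 fibroblast markers 4 were expressed enough to test, and their sum over all 8 was 301 to 399 CPM in ASO-L1, 242 to 367 CPM in SO-L1 and 255 to 383 CPM in ASO-Ctr. LUM and DCN had 5 counts and 1 count over all libraries, and COL1A1 rose to 116 ± 22.6 CPM in ASO-L1, against 66.4 ± 20.2 CPM in ASO-Ctr (SD, n = 4 each; log2 change 0.80 ± 0.26, edgeR adjusted p = 0.0425). The other 3 did not pass (THY1 0.12 ± 0.26, COL1A2 -0.18 ± 0.11 and POSTN -0.39 ± 0.57), and with the library number as a block COL1A1 and THY1 were higher and COL1A2 and POSTN lower. Of 8 trophectoderm markers 4 were tested, 2 rose (GATA2 and KRT7) and 0 fell against ASO-Ctr, and their sum over all 8 was 57.7 to 64.7 CPM in ASO-L1, 54.6 to 71.7 CPM in SO-L1 and 56.9 to 73.7 CPM in ASO-Ctr. TFAP2C, which held most of that sum, had -0.17 ± 0.12 (0.381) and was lower with the block (0.00184). The part of these markers in the results was not tested. In bulk RNA, fewer cells of a type and less RNA per cell cannot be told apart.

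A window of 25 bases around the annotated start, 10 bases before it and 15 from it, is shown for some of the genes described below, so that their TOP motifs can be compared. Capitals mark the pyrimidine run that begins at the first transcribed base, and the sequences are from RefSeq on GRCh38.p14, whereas the counts were made on hg19.
The large-subunit gene RPL28 (chr19:55385922-55385946, plus strand), which was higher in ASO-L1, begins with 8 pyrimidines.
RPL28: cctcgccttcCTCTTTCCgtctcag
The stalk genes RPLP1 (chr15:69452808-69452832, plus strand) and RPLP0 (chr12:120201097-120201121, minus strand) begin with 11 and 9 pyrimidines.
RPLP1: ggcgcgagagCCCCTTTCCTCagct
RPLP0: ggcgcgaggcCCTTCTCTCgccagg
The small-subunit gene RPS13 (chr11:17077653-17077677, minus strand) begins with 6 pyrimidines.
RPS13: ctctcgctctCCTTTCgttgcctga
Among the genes that leaned lower in ASO-L1 were RPL12 (chr9:127451392-127451416, minus strand), RPL3 (chr22:39319609-39319633, minus strand) and RPL26 (chr17:8383179-8383203, minus strand), with runs of 6, 4 and 12 pyrimidines.
RPL12: cgatttccggCCTCTCggctttcgg
RPL3: gccgaccggcCTCTaccggcgggat
RPL26: gcgtgtagttCTCTTCCCTTTTgcg
The gene nearest to the level limit, RPL36A (chrX:101391001-101391025, plus strand), has a run of 10 pyrimidines.
RPL36A: ctcgcggtttCTTTCTTTCCgcgcc
Of these 8 genes, RPL3 alone falls short of a C followed by at least 4 pyrimidines. Not shown are RPL15, which also leaned lower, and RPL19, which leaned higher. Neither has a C at the first base of any annotated start (3 for RPL15 and 2 for RPL19).

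RefSeq windows from 250 bases before to 50 bases after the start were found for 61 of the 75 genes. A C at the first base followed by at least 4 C or T was present at a start of 46 of these 61 genes (75.4%), against 5.14% of 27305 genes. The motif CCGGAA, the core bound by ETS factors such as GABPA, was found on either strand in 57.4% of the ribosomal protein windows and in 20.1% of all windows. AAGATGGC, bound by YY1, was present in 9.84% against 3.52%, and TATAAA in 8.20% against 14.0%. These are matches of letters within the window and do not show binding.

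The 75 genes together took 4.97% ± 0.111 of all counts in ASO-L1, 4.82% ± 0.184 in SO-L1 and 4.87% ± 0.254 in ASO-Ctr (SD, n = 4 each). By number from 1 to 4 the shares were 5.08, 5.03, 4.83 and 4.95% in ASO-L1, 4.92, 5.03, 4.63 and 4.71% in SO-L1, and 4.69, 5.25, 4.76 and 4.77% in ASO-Ctr. The 3 groups overlapped, and the group means differed by less than the SD of ASO-Ctr, the largest of the 3. Within each number ASO-L1 lay above SO-L1, though barely in number 2 (5.033% against 5.027%). It lay above ASO-Ctr in numbers 1, 3 and 4 and below it in number 2. A single library's share was known to within 0.0094 percentage points or better (the distance from the share to the bounds of its 95% Wilson interval, which covers counting error only). ASO-Ctr 2 stood apart with the highest share and with 3.99% of its counts from the 13 mitochondrially encoded mRNAs, the lowest of all libraries. ASO-Ctr 1 had the lowest share of its group beside the highest mitochondrial share, 6.92%.

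**Figure D1:**
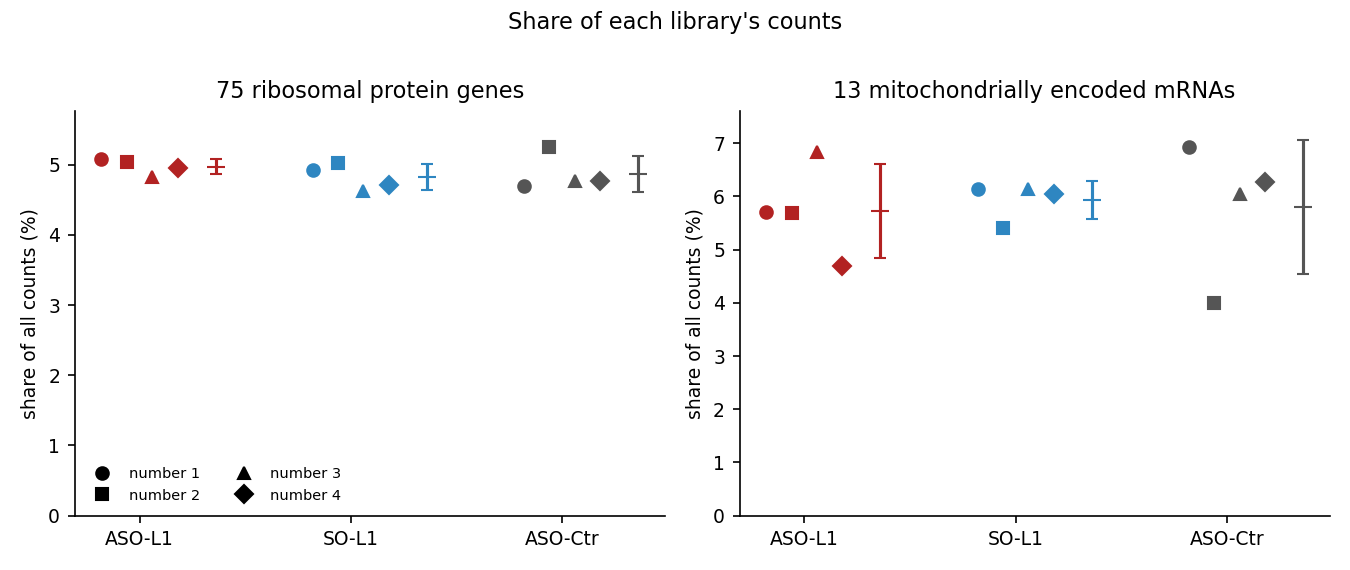
Share of each library's counts (%, axes from 0) held by the 75 ribosomal protein genes, left, and by the 13 mitochondrially encoded mRNAs, right, with groups along the horizontal axis, a marker shape for each library number, and mean ± SD (n = 4) beside the points. The ribosomal protein shares lie between 4.63% and 5.25% and overlap between groups, and ASO-Ctr 2 combines the highest of them with the lowest mitochondrial share, 3.99%.

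Levels differed widely among these genes, nearly all of whose proteins are needed in equal number. Per kilobase of coding sequence the median was 1225 CPM, with quartiles of 853 and 1626 CPM per kb, 1268 CPM per kb in the small subunit and 1222 CPM per kb in the large subunit. RPL37A stood highest at 2974 CPM per kb, before RPS18 (2446 CPM per kb, both named after their values were seen) and RPLP1 (2297 CPM per kb). RPL36A stood lowest at 36.9 CPM per kb, followed by RPS10 (58.9 CPM per kb), RPL23A (183 CPM per kb) and RPS23 (219 CPM per kb). Coding lengths are from GENCODE v29 and leave out the untranslated parts of the mRNA, so the ranking also depends on this choice of length. RPS10 and RPL36A share exons with annotated read-through transcripts, and most members have processed pseudogenes of nearly the same sequence, so reads can be split or dropped among them and the lowest levels are uncertain. The 625 rows named as pseudogenes of these genes held 181 CPM in all, 23.5 CPM of it under RPL23A names against 85.8 CPM for RPL23A itself. Without regard to length, RPL3 had the most counts (a mean of 2045 CPM), then RPL8 (1751 CPM), RPS6 (1593 CPM), RPL4 (1569 CPM) and RPS4X (1532 CPM), and RPL41, whose protein is the shortest of all, had 48.8 CPM.

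With ASO-L1 against ASO-Ctr, which asks what antisense oligos to L1 change beyond the effect of an untargeted oligo, ribosomal protein mRNAs moved little. The median of the 75 log2 changes was 0.04, against -0.0010 over all 17228 genes tested, and 57 of the 75 lay within 0.1 of 0. In the edgeR quasi-likelihood test 1 gene was higher and 0 were lower, where 11.6% of all genes tested were called higher and 10.7% lower (22.3% together). Without adjustment 9 of the 75 had p under 0.05, 6 higher and 3 lower. Libraries that share a number deviated together, and a fit that takes the number as a block called 16 of the 75 higher and 4 lower. These are 21.3% and 5.33% of the 75, where that fit called 22.5% of all genes tested higher and 22.5% lower (45.0% together). The share called higher was near that of all genes, and the share called lower was below it.

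ASO-L1 against SO-L1, which sets the antisense against the sense oligos, shares the ASO-L1 libraries with the first comparison and is not independent of it. Its median over the 75 genes was 0.05, against -0.0029 over all genes tested. Here 4 genes were higher, RPS13, RPL28 and RPLP1 among them, and 0 lower, where 10.7% of all genes were called higher and 9.64% lower (20.3% together). Without adjustment 13 had p under 0.05, 10 of them higher. The blocked fit called 22 higher and 3 lower, 29.3% and 4.00% of the 75, where 21.6% of all genes were called higher and 21.7% lower (43.4% together).

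**Figure D2:**
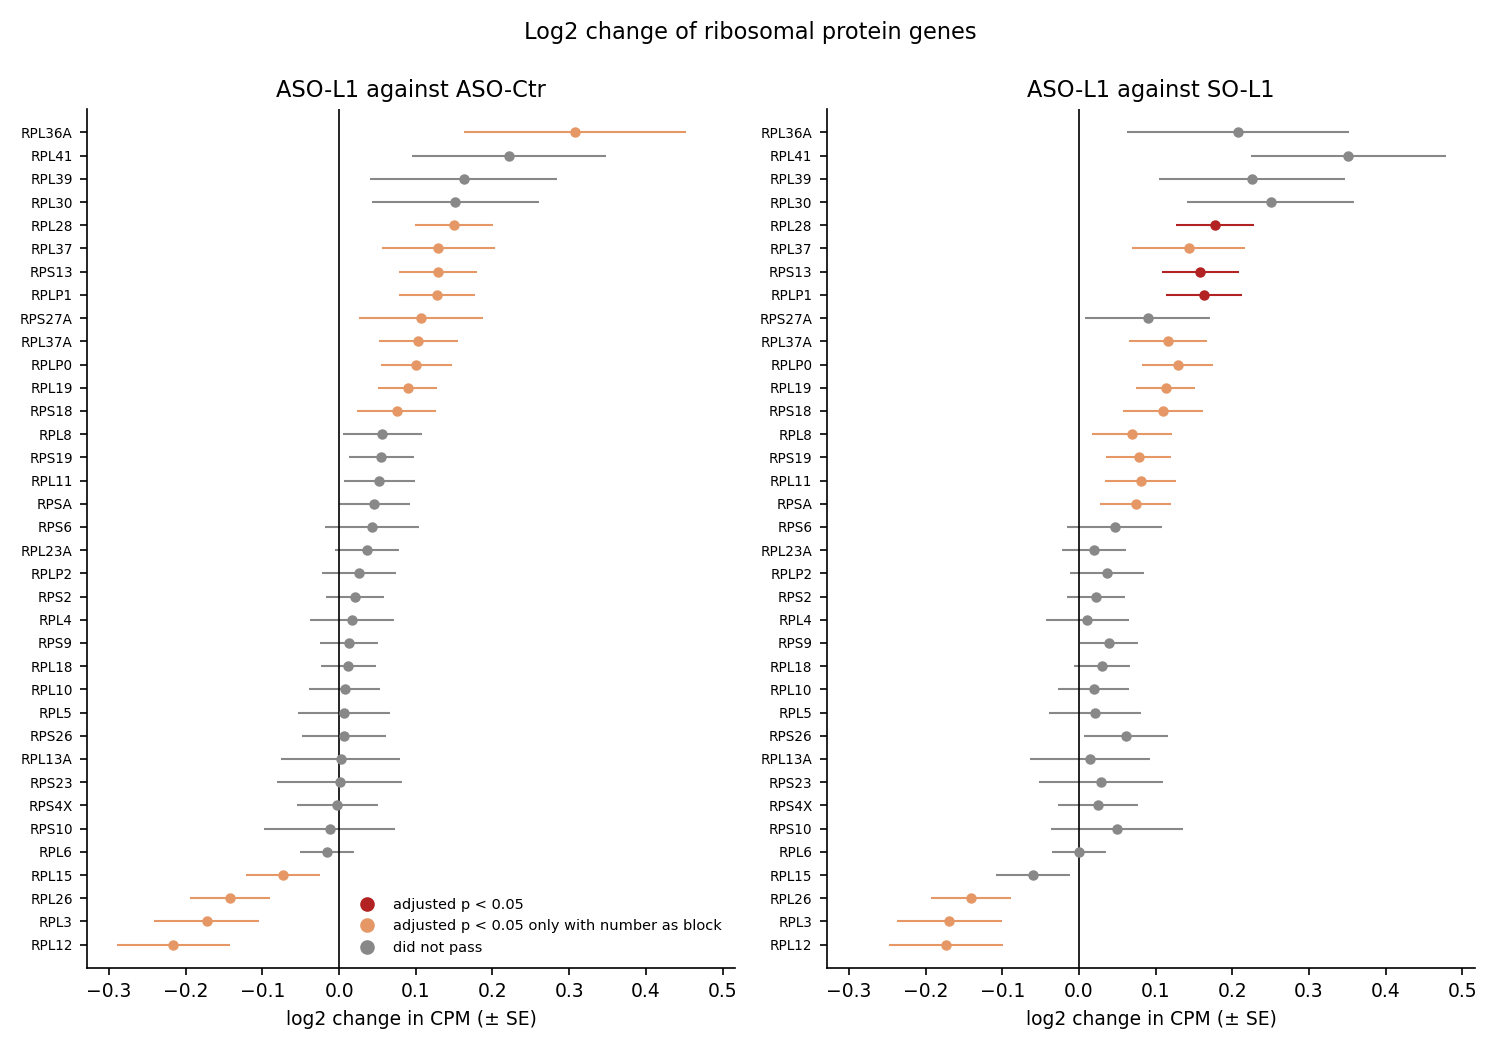
Log2 change in CPM (horizontal axis, ± SE) of 36 of the 75 ribosomal protein genes, those described by name, in ASO-L1 against ASO-Ctr, left, and in ASO-L1 against SO-L1, right, both in the order of the left panel. Dark red (right panel) marks genes with an adjusted p under 0.05, orange those that passed only with the library number as a block, and grey the rest; 22 genes on the left and 21 on the right lie within 0.1 of 0, and RPL12, RPL3 and RPL26 stand apart at the lower end of both.

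RPS13, a small-subunit protein, had 431, 413, 398 and 401 CPM in ASO-L1, 392, 384, 349 and 347 CPM in SO-L1, and 357, 398, 378 and 369 CPM in ASO-Ctr. ASO-L1 and SO-L1 did not overlap, while ASO-Ctr 2 lay just above ASO-L1 3. On the log2 scale the change was 0.16 ± 0.05 against SO-L1 (edgeR adjusted p = 0.0426, and 1.91e-04 with the block) and 0.13 ± 0.05 against ASO-Ctr (0.0893, and 0.00189 with the block). The unblocked call against SO-L1 was lost in 8 of 12 fits that each left out 1 library, with adjusted p of up to 0.151 (any of the 4 ASO-L1 libraries, SO-L1 3 or 4, or ASO-Ctr 3 or 4).

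The small-subunit genes named in this paragraph had estimates nearer to 0 than RPS13. Over all 30 small-subunit genes the highest estimates were 0.151 against ASO-Ctr and 0.165 against SO-L1, above those of RPS13. RPS6, the substrate of the S6 kinases, had a log2 change of 0.04 ± 0.06 against ASO-Ctr (adjusted p = 0.682) and RPS4X, the X-linked form of a protein of the small-subunit body, -0.0026 ± 0.05 (adjusted p = 0.982). RPS19, the gene most often mutated in Diamond-Blackfan anaemia, had 0.06 ± 0.04 against ASO-Ctr (adjusted p = 0.40) and 0.08 ± 0.04 against SO-L1 (0.228, and 0.0256 with the block). RPSA, also known as the laminin receptor, had 0.05 ± 0.05 (0.539) and 0.07 ± 0.05 (0.303, and 0.0267 with the block). RPS27A, made as a fusion with ubiquitin, had 0.11 ± 0.08 against ASO-Ctr (0.396, and 0.0427 with the block). RPS2 and RPS9 were among the genes that varied least over the 12 libraries (SD of log2 CPM 0.0423 and 0.0438), with log2 changes of 0.02 ± 0.04 and 0.01 ± 0.04 against ASO-Ctr (adjusted p = 0.758 and 0.857). Of the 30 small-subunit genes 25 had a positive estimate against ASO-Ctr and 29 against SO-L1, and with the block 7 and 10 were called, all of them higher, where that fit called 22.5% and 21.6% of all genes higher.

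The stalk proteins RPLP0, RPLP1 and RPLP2 form the flexible arm of the large subunit that recruits the GTPase translation factors. RPLP1 had 852, 881, 807 and 817 CPM in ASO-L1, 748, 787, 718 and 744 CPM in SO-L1, and 720, 837, 757 and 759 CPM in ASO-Ctr. Every ASO-L1 library exceeded every SO-L1 library, and ASO-Ctr 2 lay among the ASO-L1 values. The log2 change was 0.16 ± 0.05 against SO-L1 (edgeR adjusted p = 0.0328) and 0.13 ± 0.05 against ASO-Ctr (0.0860, and 3.34e-04 with the block). The unblocked call was lost in 7 of 12 fits that each left out 1 library, with adjusted p of up to 0.121 (SO-L1 1, 3 or 4, ASO-L1 1, 2 or 4, or ASO-Ctr 3).

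RPLP0 had 1499, 1429, 1344 and 1354 CPM in ASO-L1, 1308, 1325, 1257 and 1256 CPM in SO-L1, and 1334, 1396, 1259 and 1259 CPM in ASO-Ctr. It was higher than the library of the same number in each of the 4 pairs in both comparisons. Its log2 change was 0.13 ± 0.05 against SO-L1 (edgeR adjusted p = 0.0692, and 1.92e-04 with the block) and 0.10 ± 0.05 against ASO-Ctr (0.148, and 0.00246 with the block). RPLP2 had 0.04 ± 0.05 (0.654) and 0.03 ± 0.05 (0.766), and did not pass with the block either.

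RPL12 binds beside RPLP0 at the base of the same stalk, and its estimate had the opposite sign. It had 479, 474, 421 and 427 CPM in ASO-L1, 526, 564, 468 and 475 CPM in SO-L1, and 534, 581, 488 and 489 CPM in ASO-Ctr. All ASO-L1 libraries lay below all ASO-Ctr libraries, and each lay below the SO-L1 library of its number. RPL12 had a log2 change of -0.22 ± 0.07 against ASO-Ctr (edgeR adjusted p = 0.0523, and 7.39e-08 with the block) and -0.17 ± 0.07 against SO-L1 (0.121, and 4.71e-06 with the block). In numbers 1 and 2 alone it was -0.23 and in numbers 3 and 4 alone -0.20 against ASO-Ctr, and both passed (1.37e-04 and 3.15e-06).

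RPL3, which lies close to the peptidyl transferase centre, had 1991, 1958, 1783 and 1817 CPM in ASO-L1, 2228, 2276, 1998 and 1983 CPM in SO-L1, and 2238, 2338, 1931 and 1999 CPM in ASO-Ctr. Within each number ASO-L1 was the lowest of the 3 libraries, although the groups overlapped across numbers. The log2 change was -0.17 ± 0.07 against ASO-Ctr (edgeR adjusted p = 0.0939, and 2.61e-06 with the block) and -0.17 ± 0.07 against SO-L1 (0.104, and 3.41e-06 with the block). The transcripts of RPL3 and RPL12 are known to be held in check by splice forms that are destroyed through nonsense-mediated decay, and the gene counts do not separate such forms.

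RPL26, which sits at the exit of the peptide tunnel and is known to bind the p53 mRNA, had 579, 591, 551 and 560 CPM in ASO-L1, 652, 660, 584 and 618 CPM in SO-L1, and 577, 678, 630 and 632 CPM in ASO-Ctr. ASO-Ctr 1 was the single library of the other groups below its ASO-L1 partner. The log2 change was -0.14 ± 0.05 against ASO-Ctr (edgeR adjusted p = 0.0712, and 8.23e-04 with the block) and -0.14 ± 0.05 against SO-L1 (0.0793, and 0.00102 with the block). Without ASO-Ctr 1 the estimate against ASO-Ctr was -0.18 and passed without the block (0.0243), and without ASO-Ctr 2 it was -0.10 (0.192).

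RPL28 had 443, 454, 448 and 445 CPM in ASO-L1, 372, 404, 396 and 411 CPM in SO-L1, and 367, 441, 407 and 398 CPM in ASO-Ctr. The ASO-L1 libraries were close together and above all 8 others. The log2 change was 0.18 ± 0.05 against SO-L1 (edgeR adjusted p = 0.0260) and 0.15 ± 0.05 against ASO-Ctr (0.0517, and 1.25e-04 with the block). The unblocked call against SO-L1 was lost in 6 of 12 fits that each left out 1 library, with adjusted p of up to 0.0768 (SO-L1 1 or 3, or any ASO-L1 library), and in numbers 1 and 2 alone (0.0923).

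**Figure D3:**
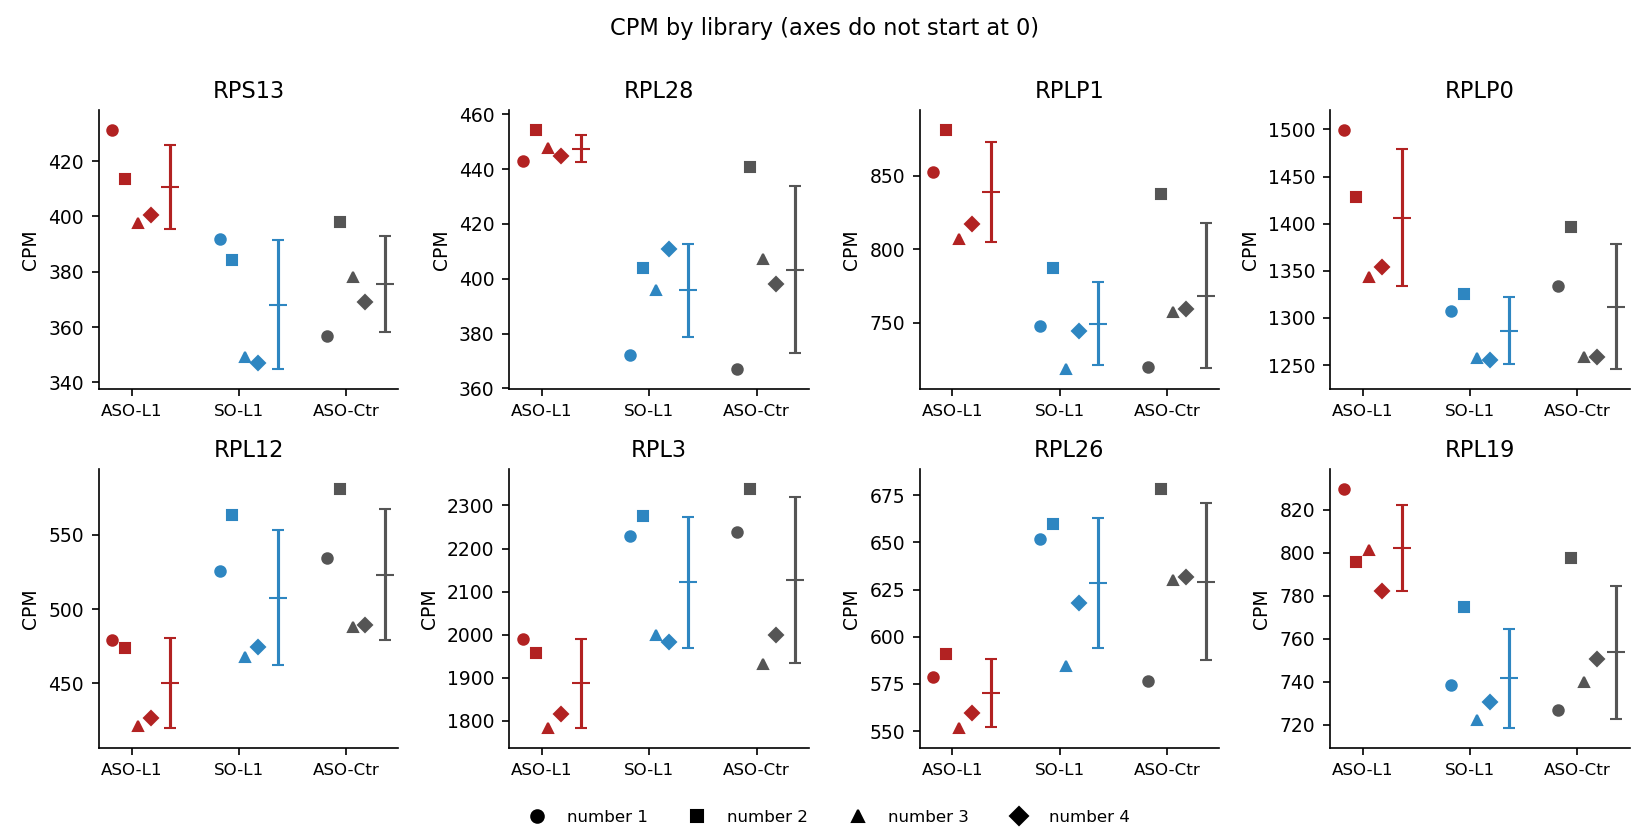
CPM of 8 ribosomal protein genes in each library (vertical axes do not start at 0), with groups along the horizontal axis, a marker shape for each library number, and mean ± SD (n = 4) beside the points. RPL28 shows all ASO-L1 libraries above the rest (443 to 454 CPM), while RPL12 and RPL3 show ASO-L1 as the lowest library within every number.

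Among the other large-subunit genes, RPL41, which encodes a very short protein of the large subunit, had 54.1, 56.6, 60.4 and 50.7 CPM in ASO-L1, 45.4, 46.2, 37.8 and 44.7 CPM in SO-L1, and 33.2, 52.6, 50.4 and 53.7 CPM in ASO-Ctr. ASO-L1 did not overlap with SO-L1, but the log2 change of 0.35 ± 0.13 did not pass (edgeR adjusted p = 0.0702, and 0.101 with the block); without ASO-Ctr 1 it passed (0.35, 0.00497). RPL36A, at 10.3 to 17.0 CPM in ASO-L1, 10.9 to 11.9 CPM in SO-L1 and 8.4 to 11.8 CPM in ASO-Ctr, had 0.31 ± 0.14 against ASO-Ctr (0.156, and 0.00553 with the block). RPL30 (0.25 ± 0.11 against SO-L1, 0.130) and RPL39 (0.23 ± 0.12, 0.225) did not pass with the block either. RPL30 passed against SO-L1 without ASO-Ctr 1 (0.25, 0.0277) and in numbers 3 and 4 alone (0.34, 2.45e-04), and RPL39 in numbers 3 and 4 alone (0.38, 1.89e-10). In numbers 1 and 2 alone neither passed (0.18, 0.637 for RPL30 and 0.11, 0.680 for RPL39).

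Of the remaining named genes, RPL19 and RPL37 passed with the block in both ASO-L1 comparisons. RPL19 had 0.09 ± 0.04 against ASO-Ctr (edgeR adjusted p = 0.123, and 0.00952 with the block) and RPL37 had 0.13 ± 0.07 (0.245, and 0.00520 with the block). RPL15 was lower with the block against ASO-Ctr (-0.07 ± 0.05, adjusted p = 0.323, and 0.0314 with the block), and had -0.04 (0.629) without ASO-Ctr 2 in the fit with no block. RPL5 and RPL11, which travel with the 5S ribosomal RNA and bind MDM2 when unassembled, had 0.0069 ± 0.06 (0.955) and 0.05 ± 0.05 (0.479) against ASO-Ctr. Against SO-L1 RPL11 had 0.08 ± 0.05 (0.258, and 0.0154 with the block), and RPL5 had 0.02 ± 0.06 (0.861, and 0.559 with the block). RPL4, RPL6, RPL8, RPL10, RPL18 and RPL23A had estimates between -0.02 and 0.06 against ASO-Ctr, and the smallest adjusted p among them was 0.497. Of these RPL8 alone passed with the block against SO-L1 (0.07 ± 0.05, 0.40, and 0.0421 with the block).

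Of 26 genes that carry small nucleolar RNAs in their introns, 0 were called against ASO-Ctr in either direction, 3 had p under 0.05 without adjustment, and with the block 3 were higher and 2 lower (median log2 change 0.03). Of 17 genes mutated in Diamond-Blackfan anaemia, 0 were called against ASO-Ctr, 1 had p under 0.05 without adjustment, and with the block 0 were higher and 2, RPL15 and RPL26, lower (median 0.01). The blocked fit called 22.5% of all genes higher and 22.5% lower.

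The counts and the median moved with single libraries. For ASO-L1 against ASO-Ctr, 0 were higher and 1 lower without ASO-Ctr 1, and the median was 0.02; without ASO-Ctr 2, 4 were higher and 0 lower, and the median was 0.07. Of all genes 9.75% were called higher and 8.87% lower without ASO-Ctr 1, and 9.55% and 8.48% without ASO-Ctr 2. RPL28 (0.19, edgeR adjusted p = 0.0116), RPLP1 (0.17, 0.0196) and RPL19 (0.12, 0.0469) passed without ASO-Ctr 2. RPL19 also passed against SO-L1 without ASO-Ctr 2 (0.11, 0.0376). The median was also 0.02 without ASO-L1 1 or ASO-L1 2, 0.01 without ASO-Ctr 3 and 0.02 without ASO-Ctr 4. With the block and without all 3 libraries of number 1, 6 were higher and 6 lower with a median of -1.719e-05, and without number 2, 17 were higher and 3 lower with a median of 0.06. Those fits called 19.6% of all genes higher and 20.4% lower without number 1, and 19.6% and 19.3% without number 2. RPL12, RPL3 and RPL26 passed in each of the 4 blocked fits that left out a number.

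SO-L1 against ASO-Ctr, the comparison of the control oligo sets, showed 0 ribosomal protein genes called in either direction in edgeR, where 0.029% of all genes tested were called. No member had p under 0.05 without adjustment, and DESeq2 and limma-voom also called 0. With the block 0 were called, where 0.424% of all genes tested were called higher and 0.987% lower (1.41% together), and no member had groups that did not overlap, against 1.04% (higher) and 1.26% (lower) of all genes. The median was -0.02, and the estimates ran between -0.13 ± 0.13 for RPL41 and 0.10 ± 0.15 for RPL36A. The sign of this median turned without ASO-Ctr 2 (0.02) or SO-L1 3 (0.0028) and in numbers 1 and 2 alone (5.9e-04). In numbers 3 and 4 alone RPL30, RPL39 and RPS23 were lower in SO-L1 (-0.27, -0.31 and -0.17, adjusted p = 0.0359, 7.90e-06 and 0.0407), where 1.15% of all genes tested were called.

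Against ASO-Ctr, ASO-L1 lay wholly above for 2 genes, RPL28 among them, and wholly below for 1 (RPL12), where 13.3% and 12.2% of all genes did so. Against SO-L1 it lay wholly above for 12 and below for 0, where 12.7% and 11.5% of all genes did so.

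Many ribosomal protein genes differed between library numbers. In a test of the 3 number coefficients, 46 of the 75 genes varied with the number (61.3%), where 45.7% of all genes tested did. This excess depended on the scaling: with total counts alone 35 varied (46.7%), where 46.1% of all genes did. With the scaling method kept and no filter on low counts, 54 did (72.0%), against 22.9% of all genes. That lower share reflects the low-count rows added: 7979 of 34852 were called, against 7868 of 17228 with the filter. By the sign of the difference alone, 40 of the 46 were lower and 6 higher in numbers 3 and 4 than in numbers 1 and 2. The median difference was -0.07 over the 75 genes, against 0.0078 over all genes. This difference was not itself tested, and RPL28 varied with the number (edgeR adjusted p = 0.0138) at a difference of 0.02. The share of counts averaged 4.78% in numbers 3 and 4, against 5.00% in numbers 1 and 2. Numbers 1 and 2 were not alike for every gene. With group means taken out, RPL11 deviated by -0.014 in number 1 and 0.078 in number 2 on the log2 scale. RPS27A deviated by 0.083 and 0.11. The adjusted p beside the differences below are from that edgeR test, which asks whether any of the numbers differ. RPL13A averaged 1150 CPM in numbers 3 and 4, against 1320.4 CPM in numbers 1 and 2 (log2 difference -0.20, adjusted p over all numbers 3.82e-08). RPL12 differed by -0.19 (1.38e-07) and RPS27A by -0.19 (9.84e-04). In the other direction RPL36A differed by 0.27 (0.00760), RPS10 by 0.13 (0.00748) and RPS26 by 0.12 (9.21e-04); RPL13A and RPS26 were named after their values were seen. The labels do not say what the numbers stand for.

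Within each set of numbers the median change in ASO-L1 was above 0. Against ASO-Ctr, numbers 1 and 2 alone gave 6 higher and 2 lower (median 0.04, with 35.3% of all genes called), and numbers 3 and 4 alone 13 higher and 3 lower (median 0.03, 35.0%). Against SO-L1, 5 were higher and 3 lower in numbers 1 and 2 (34.2%), and 30 higher and 3 lower in numbers 3 and 4 (33.6%). The difference between the sets was tested as an interaction, and 0 of the 75 genes passed in any of the 3 comparisons, with 1, 2 and 5 genes under an unadjusted p of 0.05 in edgeR. Of all genes 0.778% passed for ASO-L1 against ASO-Ctr, 1.76% for ASO-L1 against SO-L1 and 0.0% for SO-L1 against ASO-Ctr.

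**Figure D4:**
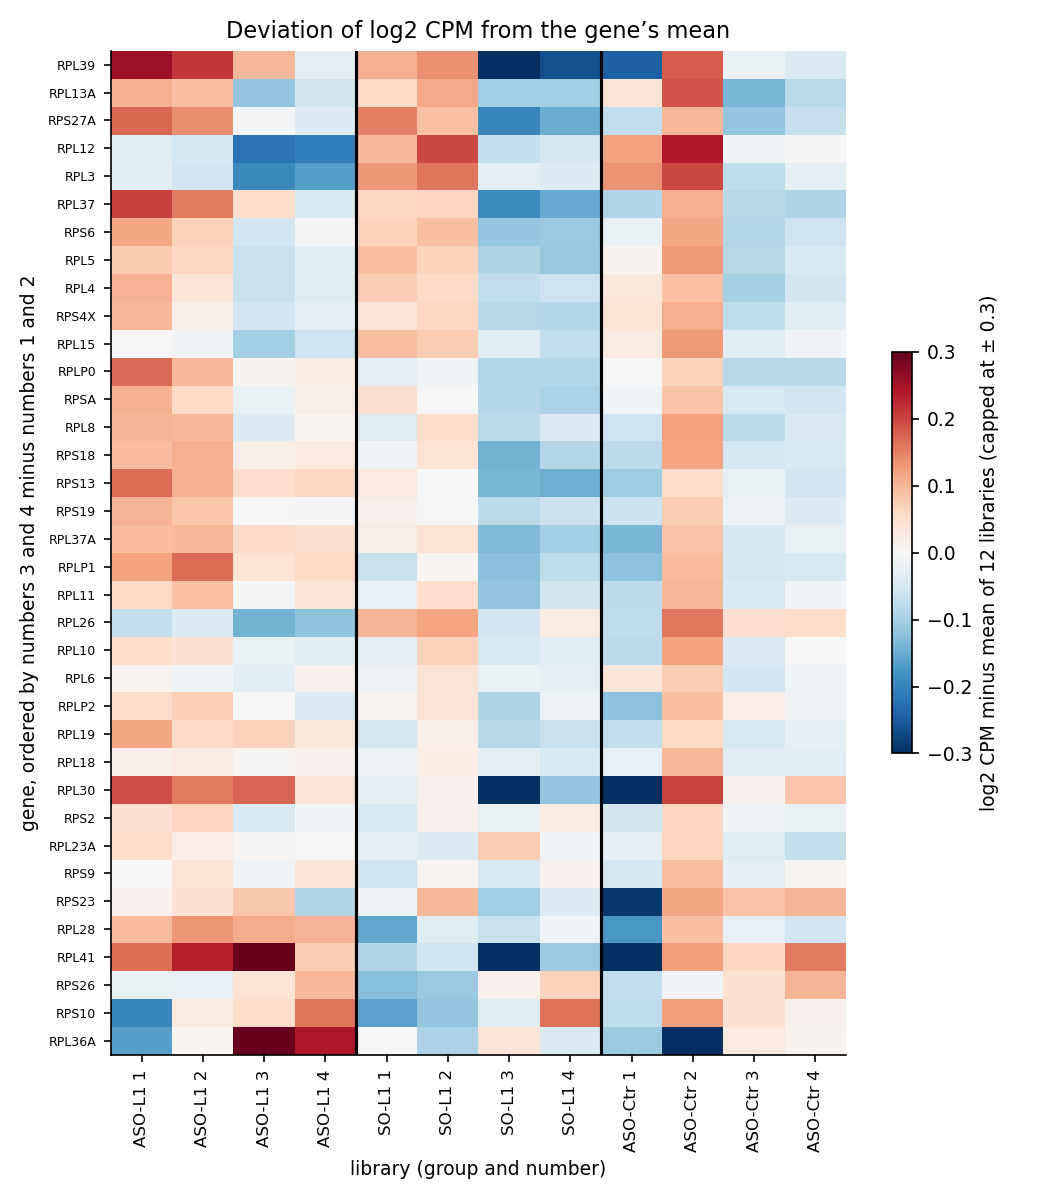
Log2 CPM of the same 36 ribosomal protein genes (rows, ordered by the difference of numbers 3 and 4 minus numbers 1 and 2) in each of the 12 libraries (columns), as the deviation from the gene's mean, with colours capped at 0.3 on either side. Of the 36 genes, 30 were lower in numbers 3 and 4 than in numbers 1 and 2. Number 2 is red for most genes in every group, ASO-Ctr 2 included, whereas ASO-Ctr 1 is blue for most genes. RPL36A, RPS10 and RPS26 at the foot were higher in numbers 3 and 4.

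With the group means taken out, the 75 genes varied together over the 12 libraries. The mean correlation over all pairs of genes was 0.573 and 90.3% of pairs were positive, against a mean of 0.0110 over the 9907 tested genes with at least 10 CPM. The libraries share depth and scaling, so this is a description and not a test. RPL36A, RPS26 and RPS10 had a negative mean correlation with the rest (-0.57, -0.37 and -0.15). The median SD of log2 CPM over the 12 libraries, with the group means left in, was 0.0814, against 0.129 for tested genes of at least 10 CPM. Those genes were not matched to the 75 in level, and the part of level in this gap was not tested. RPL6 and RPL18 varied least (0.0362 and 0.0395), and RPL41 and RPL36A most (0.247 and 0.240). Shorter genes varied more: the median SD was 0.0993 in the 25 genes with a coding sequence of 75 to 399 bases and 0.0696 in the 25 with 582 to 1281 bases.

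The authors' deposited table for ASO-L1 against SO-L1 listed all 75 genes, with 8 higher and 3 lower at its adjusted p under 0.05, where 25.1% of its 21414 rows passed. In the authors' deposited table RPL12 (-0.17, adjusted p = 0.0156), RPL3 (-0.17, 0.00541) and RPL26 (-0.14, 0.0412) were the 3 lower genes. The authors' deposited table gave RPLP0 (0.13, 0.00599), RPS13 (0.16, 0.00719), RPL28 (0.18, 0.00866), RPLP1 (0.16, 0.0116), RPL19 (0.11, 0.0236), RPL41 (0.36, 0.0246) and RPL37 (0.15, 0.0410) among the higher genes. How that table treated the library numbers is not given in the sources used here.

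Other genes of ribosomal protein biology were examined from lists chosen for their roles. For comparison with all the lists, edgeR called 11.6% of all genes tested higher and 10.7% lower against ASO-Ctr. With the block it called 22.5% in each direction. Against SO-L1 the shares were 10.7% higher and 9.64% lower, and with the block 21.6% and 21.7%. FAU, a ubiquitin-like fusion which yields RPS30, averaged 249 ± 4.97 CPM in ASO-L1, 237 ± 5.78 CPM in SO-L1 and 239 ± 13 CPM in ASO-Ctr (SD, n = 4 each), with a log2 change of 0.05 ± 0.04 against ASO-Ctr (edgeR adjusted p = 0.405). Of all 10 paralogs and fusions tested, 0 were called against ASO-Ctr, 1 had p under 0.05 without adjustment, and the median was 0.02. With the block 1 was higher and 0 lower against ASO-Ctr, and 2 were higher and 0 lower against SO-L1.

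Of 18 tested genes for translation factors and other proteins listed as TOP mRNAs, 0 rose and 1 fell against ASO-Ctr. With the block 4 were higher and 4 lower. Of all genes 22.3% were called, and 45.0% with the block. The one that fell was EIF3D, a cap-binding subunit of initiation factor eIF3, at 183 ± 11.6 CPM in ASO-L1, 262 ± 15.9 CPM in SO-L1 and 259 ± 24.2 CPM in ASO-Ctr (log2 change -0.50 ± 0.07 against ASO-Ctr, edgeR adjusted p = 2.22e-04). The list median was -0.0046.

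Of 18 genes of the mTOR and LARP1 pathway, 5 rose and 3 fell against ASO-Ctr, and 2 rose and 3 fell against SO-L1. With the block 6 were higher and 7 lower against ASO-Ctr, and 4 and 3 against SO-L1. Of all genes, 22.3% were called against ASO-Ctr and 20.3% against SO-L1, and 45.0% and 43.4% with the block. RPS6KB1, the S6 kinase that phosphorylates RPS6, fell to 33.0 ± 1.92 CPM in ASO-L1, against 46.0 ± 1.70 CPM in ASO-Ctr (-0.48 ± 0.05, edgeR adjusted p = 4.91e-05). TSC1, an inhibitor of the pathway, fell by 0.22 ± 0.06 on the log2 scale (0.0158), and DEPTOR, another inhibitor, by 0.32 ± 0.10 (0.0288). LARP4, a poly(A)-binding relative of LARP1, rose by 0.17 ± 0.04 (0.00962) against ASO-Ctr, and LARP1 by 0.16 ± 0.05 (0.0289) against SO-L1.

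Of 12 chaperones and importers of ribosomal proteins, 0 rose and 3 fell against ASO-Ctr, where 22.3% of all genes were called. With the block 4 were higher and 3 lower, where 45.0% of all genes were called. The 3 that fell were HEATR3, which carries RPL5 and RPL11 into the nucleus (-0.19 ± 0.05, edgeR adjusted p = 0.0124), BCCIP, a chaperone of RPL23 (-0.18 ± 0.05, 0.0159), and the importin IPO9 (-0.16 ± 0.05, 0.0195). Of 7 transcription factors of ribosomal protein genes, 0 rose and YY1 fell (-0.13 ± 0.04, 0.0438), and with the block 2 were higher and 2 lower.

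Of 14 genes of ribosome quality control, 2 rose and 2 fell against ASO-Ctr, and with the block 5 were higher and 4 lower. Of all genes, 22.3% were called against ASO-Ctr and 20.3% against SO-L1, and 45.0% and 43.4% with the block. ASCC3, a helicase that splits collided ribosomes, fell to 142 ± 9.17 CPM in ASO-L1, against 196 ± 20.9 CPM in ASO-Ctr (-0.47 ± 0.09, edgeR adjusted p = 0.00272), and USP10, which removes ubiquitin from small-subunit proteins, fell by 0.16 ± 0.05 on the log2 scale (0.0359). ZNF598, the sensor of collisions, rose by 0.26 ± 0.09 (0.0457), and ABCE1, which recycles ribosomes, by 0.14 ± 0.04 (0.0334). Of 6 genes of the p53 checkpoint that answers to free ribosomal proteins, 3 rose and 0 fell: BBC3 (0.36 ± 0.09, 0.0113), MDM4 (0.36 ± 0.11, 0.0306) and CDKN1A (0.34 ± 0.11, 0.0444). Against SO-L1 1 of the 6 passed (MDM4), and with the block 4 were higher and 2 lower in either comparison.

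Of 75 mitochondrial ribosomal protein genes tested, 7 rose and 4 fell against ASO-Ctr, with a median of 0.03, and with the block 15 were higher and 8 lower. Of all genes 22.3% were called, and 45.0% with the block. MRPS28 (-0.37 ± 0.08, edgeR adjusted p = 0.00366), MRPS35 (-0.24 ± 0.05, 0.00272) and MRPS9 (-0.19 ± 0.04, 0.00316) fell, and MRPS5 rose (0.17 ± 0.04, 0.0143). Of the 50 pseudogene rows of cytosolic ribosomal proteins that could be tested, 2 rose, RPL23AP7 (0.63 ± 0.19, 0.0322) and RPL39P40 (1.65 ± 0.52, 0.0373), and 0 fell, and their reads can be shared with the parent genes. Both had few counts: RPL23AP7 averaged 2.54 CPM in ASO-L1 and 1.64 CPM in ASO-Ctr, and RPL39P40 0.96 and 0.29 CPM. With the block 4 pseudogenes were higher and 2 lower.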

How the data were processed

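The deposited raw counts per gene symbol, which carry the label rmDup, were used as the authors gave them. Whether that label means that duplicate reads were removed is not given in the sources used here. Its part in the levels, shares and changes was not tested. Per the submitters' processing notes, reads were handled with Trim Galore 0.4.0, TopHat2 2.0.13 and featureCounts (Subread 1.5.0) on hg19, and the library kit keeps strand. Strand setting, annotation and the treatment of multi-mapped reads are not given in the sources used here. One unnamed row (10 counts over all libraries) was left out. The authors' batch-corrected log2 values and their table of log2 fold changes with p-values served as side values.

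Counts were analysed with edgeR 4.0.16 in R 4.3.3: filterByExpr by group (minimum count 10, minimum total 15), TMM factors, and a robust quasi-likelihood fit of all 12 libraries with a mean per group. P-values are two-sided and adjusted by Benjamini-Hochberg over all 17228 genes, with a threshold of 0.05, and ± after a log2 change is its SE. Printed CPM use effective library sizes. Recovery of known changes was tested on simulated data. DESeq2 1.42.0 and limma-voom (limma 3.58.1) were alternatives.

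No label says what the numbers 1 to 4 share. After removal of group means, r across genes was 0.450 to 0.561 for all 12 pairs of same-numbered libraries. Values with the number as a block are therefore also given, though not for every gene and comparison. Nothing says that libraries came from separate cultures, so p-values measure the spread between these libraries. The genes and lists were chosen with earlier results of these data known. Named genes are those called (up to 6 per direction and comparison, with the block where fewer than 5 passed), the 5 highest and 5 lowest in CPM, the 4 most and 4 least variable, and a set of well-known members; for other lists, up to 4 called genes. Results of some genes are not reported here, and they are counted in totals only.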

Additional observations from a re-analysis of the deposited data

Results flagged for a closer look

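In 7 of 102 sets of 4 libraries, the highest or lowest library stood far from the other 3 by Dixon's criterion, which chance meets in about 1 set in 20. Of these, 4 were ASO-Ctr libraries at the upper end: ASO-Ctr 2 had 5.25% of its counts in the 75 genes, 659.6 CPM for RPL18, 508 CPM for RPL37 and 1903 CPM for RPL8. At the lower end, ASO-Ctr 1 had 33.2 CPM for RPL41 and 76.5 CPM for RPS23. In SO-L1, number 2 had 585 CPM for RPL10, above the other 3 libraries at 541 to 548 CPM. The same libraries ASO-Ctr 2 and ASO-Ctr 1 held the lowest and the highest mitochondrial share of their group, 3.99% and 6.92%, and its part in these values was not tested.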

How the results depend on the processing

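Effects were of the size of the spread between libraries, and the count of genes called depended on the fit more than the sizes of change did. For ASO-L1 against ASO-Ctr the 1 gene called became 20 with the replicate block, 19 with the block and total counts alone, 14 with the block and TMM without the 75 genes, 8 in numbers 1 and 2, 16 in numbers 3 and 4, 3 in DESeq2, 2 each in limma-voom, with total counts alone and with TMM without the 75 genes, and 0 with no filter. Against SO-L1 the 4 became 25 with the block, 26 with the block and total counts alone, 22 with the block and TMM without the 75 genes, 8 in numbers 1 and 2, and 33 in numbers 3 and 4. For SO-L1 against ASO-Ctr 0 became 3 in numbers 3 and 4. The cause of these shifts was not tested. Of all genes, 22.3% were called against ASO-Ctr in the main fit and 45.0% with the block. In numbers 1 and 2 alone the share was 35.3%, and in numbers 3 and 4 alone 35.0%. Against SO-L1 these 4 shares were 20.3%, 43.4%, 34.2% and 33.6%. Between the control sets 1.15% were called in numbers 3 and 4. Shares over all genes in the other fits are not given here. Leaving out 1 library gave 0 to 4, 1 to 7 and 0 called, and medians of 0.01 to 0.07, 0.03 to 0.08 and -0.04 to 0.02. Leaving out number 1, 2, 3 or 4 from the blocked fit gave 12, 20, 11 and 17 against ASO-Ctr, 31, 22, 13 and 15 against SO-L1, and 0 between the control sets. Of all genes, those fits called 18.9% to 20.4% in each direction against ASO-Ctr, and 18.4% to 19.3% against SO-L1. The share of counts was 5.27% in ASO-L1, 5.12% in SO-L1 and 5.17% in ASO-Ctr without mitochondrial mRNAs, and 5.12% in ASO-L1 with paralogs and pseudogenes. The authors' batch-corrected values gave medians of 0.04, 0.06 and -0.02. Of values for single genes under all alternatives, 106 were called in both fits and 2339 in neither, 29 lost their call, 199 gained one and 0 called values reversed. The blocked fits that left out a number or changed the scaling, the interaction and the batch-corrected values were chosen after seeing the data. Depth limits RPL36A most, at 11.7 CPM.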
